A study of Mus musculus with 9 samples.

Results

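The MYC-MAX-MXD network was examined in 3 mouse blood cell lines. Its 10 members here are *Myc*, *Mycn*, *Mycl*, *Max*, *Mxd1*, *Mxd3*, *Mxd4*, *Mxi1*, *Mlx* and *Mga*, found by symbol among the 54347 genes of the count table. Polyadenylated RNA was sequenced from 3 libraries per line. Hox-WT (HoxWT in the labels, wild type) and Hox-URE (HoxURE, genotype UREd/d) are progenitor lines, each made from c-Kit+ bone marrow cells of 1 mouse with a Hoxb8 fusion protein that works while estradiol is present. UREd/d cells lack the upstream regulatory element (URE), which enhances transcription of *Spi1*, and *Spi1* encodes the transcription factor PU.1. URE-AML (B22 in the labels, also UREd/d) is a blast-like line grown out of the acute myeloid leukemia of a mouse with the deletion. The labels give all lines the same medium with fetal calf serum, IL-3, IL-6, SCF and β-estradiol. Each genotype and stage is thus 1 line, and no label says whether separate cultures gave the libraries of a line, so p-values measure the spread between libraries, which may be technical. In bulk RNA, fewer cells with a transcript and less transcript per cell cannot be told apart.

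MYC proteins bind DNA as dimers with MAX, at the E-box CACGTG, and raise transcription of genes for ribosome production, metabolism and cell division. The MXD proteins (MXD1, MXD3, MXD4 and MXI1) compete for MAX and bring the SIN3-HDAC corepressor to the same element. MGA also pairs with MAX, as part of a Polycomb complex, and MLX is a MAX-like protein that pairs with MLXIP, MLXIPL and some MXD proteins. In blood, *Myc* is known for driving progenitor growth and MXD1 for its rise as granulocytes mature.

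The E-box that the network binds was searched in the promoters of its own genes, because it ties members to each other by sequence. RefSeq promoter windows (250 bases before to 50 after a start, GRCm38.p6) were found for 9 of the 10 members, all but *Myc*. CACGTG, which reads the same on both strands, stood in windows of 3 of these 9 members, *Mxd4*, *Mlx* and *Max*, and in 7.15% of all 32851 windows. Its first base lay 219 bases before the start of *Mxd4*, 40 before that of *Mlx* and 3 before that of *Max*. The letters GAGGAAGT, a form of the PU.1 site, were in no member's window on either strand and in 3.20% of all windows. A match of letters describes the sequence only. The 3 stretches are printed 5′ to 3′ on the gene's strand, with the E-box in capitals, from chr5:34187879-34187960 (minus strand), chr11:101087205-101087289 (plus strand) and chr12:76962246-76962296 (minus strand).
Mxd4: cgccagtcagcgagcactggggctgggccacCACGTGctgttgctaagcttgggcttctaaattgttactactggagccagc
Mlx: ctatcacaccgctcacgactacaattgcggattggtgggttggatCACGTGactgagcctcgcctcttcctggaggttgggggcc
Max: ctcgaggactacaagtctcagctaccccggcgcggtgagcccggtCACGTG

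Total counts per library were 20331064 to 28588718, and 13082 genes had counts high enough to be tested. Libraries of a line differed by more than sampling noise (chi-square per degree of freedom of 18.1 to 99.8), most for Hox-URE libraries 1 and 3. *Spi1* had 103 ± 6.79 CPM (SD, n = 3) for Hox-WT, 0.026 ± 0.0226 for Hox-URE and 4.79 ± 2.02 for URE-AML. CPM are counts per 1e+06 counts of a library, with totals adjusted by the TMM factor (trimmed mean of M values). The labelled cell types were checked against 5 blood progenitor markers, *Kit*, *Cd34*, *Ptprc*, *Hoxb8* and *Spi1*. The deleted element enhances *Spi1*, and only the Hox lines were made with a Hoxb8 fusion, so neither gene tests the cell type. In Hox-URE versus Hox-WT, 1 rose and 4 fell (1 to 4 over the settings), beside 21.3% of all genes higher and 15.9% lower. In URE-AML versus Hox-WT, 5 fell (1 to 5), beside 20.2% of all genes lower. *Kit*, the stem cell factor receptor, was present in all lines but fell from 175 ± 15.7 CPM for Hox-WT to 43.0 ± 7.62 for Hox-URE and 97.0 ± 3.67 for URE-AML (SD, n = 3). *Hoxb8* rose in Hox-URE, from 65.8 ± 4.07 to 132 ± 7.98 CPM (SD, n = 3). *Ptprc*, the pan-leukocyte CD45, had 0 counts in Hox-URE. *Hoxb8* had 0 counts in URE-AML, where *Cd34* and *Ptprc* were also below the level of 3 counts per library.

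*Myc* was lower in both lines with the deletion than it was in Hox-WT, and *Mycn* was detected in the Hox lines but not in URE-AML. *Myc* (ENSMUSG00000022346, chromosome 15, 61985391 to 61990374 of GRCm38, plus strand) stood at 274, 290 and 257 CPM for Hox-WT libraries 1 to 3, at 137, 119 and 128 CPM for Hox-URE and at 191, 141 and 131 CPM for URE-AML. Every library of the lines with the deletion lay below every Hox-WT library, while Hox-URE and URE-AML overlapped. *Myc* fell 2.13-fold from Hox-WT to Hox-URE (log2 fold change -1.09 ± 0.14 SE, adjusted p = 9.48e-05 by edgeR). It was 1.77-fold lower in URE-AML than it was in Hox-WT (-0.83 ± 0.14 SE, adjusted p = 0.000443 by edgeR). The difference between URE-AML and Hox-URE, 0.27 ± 0.14 (SE), did not pass the test (adjusted p = 0.114 by edgeR). A gene is called here at an adjusted p under 0.05 together with a fold change over 1.5. Both *Myc* calls held in each of 19 other fits, with log2 fold changes of -1.20 to -1.05 and of -1.01 to -0.72.

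*Mycn* (ENSMUSG00000037169, chromosome 12, 12936093 to 12941914, minus strand), a MYC gene of embryonic tissue and blood stem cells, had far fewer reads. Its level was 2.66, 5.14 and 4.53 CPM in Hox-WT and 4.52, 9.90 and 11.3 CPM in Hox-URE. The 3 URE-AML libraries held 0 counts of *Mycn*, against 71 to 239 counts in the Hox libraries. A count of 0 allows up to 0.121 to 0.143 CPM in these libraries, counting error only. The level in URE-AML was therefore lower by at least 28.8-fold than the level of Hox-WT (adjusted p = 4.68e-05 by edgeR) and by at least 60.1-fold than that of Hox-URE (adjusted p = 1.99e-05 by edgeR). Between the Hox lines, the level of Hox-URE library 1 lay within the Hox-WT range, and the log2 fold change of 1.05 ± 0.39 (SE) missed the threshold (adjusted p = 0.051 by edgeR). It passed with DESeq2 (1.06, adjusted p = 0.0252). When Hox-URE library 1 was left out, the value was 1.36 (adjusted p = 0.00586 by edgeR), a call. *Mycl* (ENSMUSG00000028654, chromosome 4, 122995652 to 123002485, plus strand) had 0 counts in all 9 libraries and was not tested. Such a count allows a level of up to 0.104 to 0.153 CPM.

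**Figure D1:**
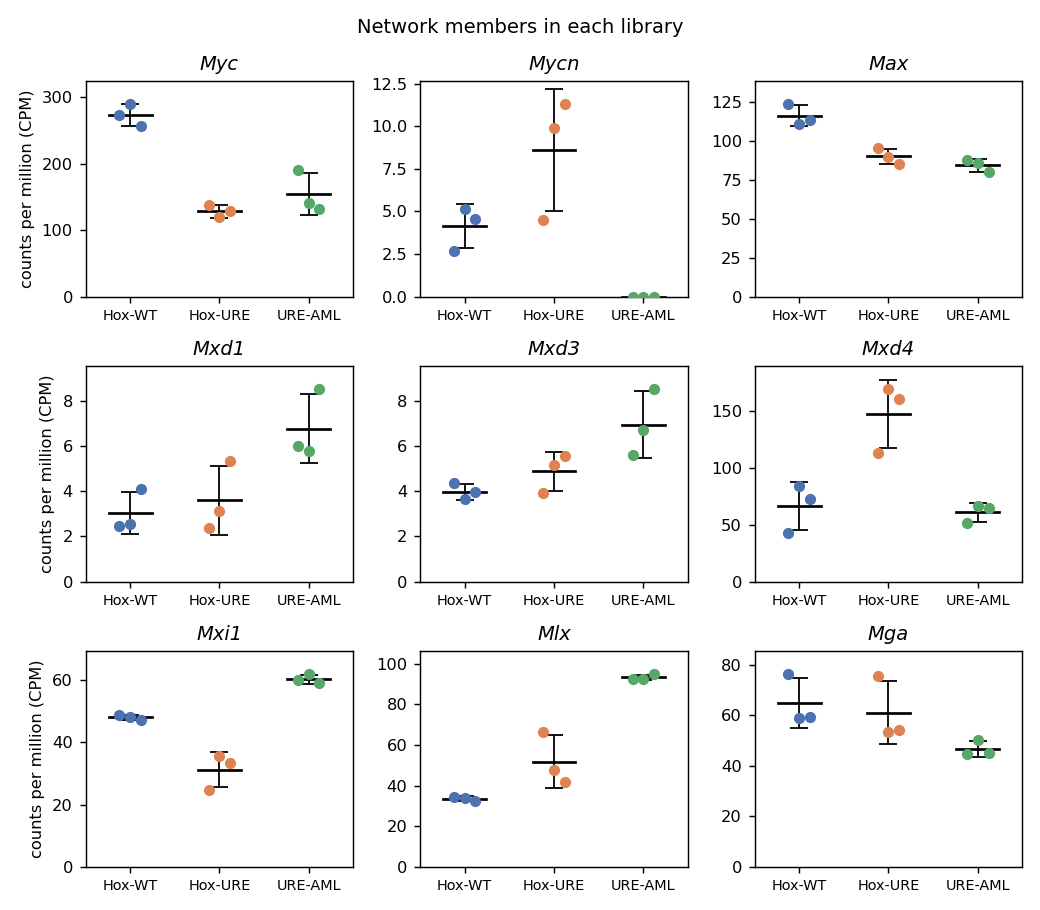
Level of 9 network members in CPM (vertical axes, linear, from 0, each with its own scale) in the 3 lines; points are libraries 1 to 3 from left to right, horizontal bars their mean and whiskers the SD (n = 3). *Myc* sits at 257 to 290 in Hox-WT and at 119 to 191 in the other lines, *Mycn* is at 0 in URE-AML, *Mxd4* is highest in Hox-URE and *Mlx* in URE-AML; *Mycl*, at 0 in all libraries, is not drawn.

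The obligate partner *Max* differed between the lines by less than 1.5-fold, while its paralog *Mlx* was highest in URE-AML. *Max* (ENSMUSG00000059436, chromosome 12, 76937269 to 76962201, minus strand) stood at 124, 111 and 114 CPM for Hox-WT, 95.1, 89.6 and 85.4 for Hox-URE and 87.4, 85.8 and 79.7 for URE-AML. All 6 libraries with the deletion were below all 3 of Hox-WT. The differences from Hox-WT, -0.36 ± 0.08 (SE, adjusted p = 0.00409 by edgeR) and -0.46 ± 0.08 (SE, adjusted p = 0.000827 by edgeR), were smaller than 1.5-fold and thus not called. *Mlx* (ENSMUSG00000017801, chromosome 11, 101087277 to 101092207, plus strand) stood at 34.6, 34.1 and 32.2 CPM for Hox-WT, 66.4, 47.6 and 41.6 for Hox-URE and 92.6, 92.7 and 94.8 for URE-AML. The lines did not overlap. *Mlx* rose 2.78-fold from Hox-WT to URE-AML (1.47 ± 0.15 SE, adjusted p = 1.75e-05 by edgeR) and 1.80-fold from Hox-URE to URE-AML (0.85 ± 0.15 SE, adjusted p = 0.000745 by edgeR). It was 1.54-fold higher in Hox-URE than it was in Hox-WT (0.63 ± 0.15 SE, adjusted p = 0.00552 by edgeR), but Hox-URE library 1 carried much of this. Without it the log2 fold change was 0.40, and without Hox-WT library 3 it was 0.58, in both cases under 1.5-fold. Exons of *Mlx* share 385 bases with *Psmc3ip* on the other strand. Whether strand was used in counting was not stated, so reads of these bases cannot be assigned with certainty.

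Among the MXD antagonists, *Mxd4* was highest in Hox-URE and *Mxd1*, *Mxd3* and *Mxi1* were highest in URE-AML. *Mxd4* (ENSMUSG00000037235, chromosome 5, 34173883 to 34187720, minus strand) stood at 42.7, 83.8 and 72.7 CPM for Hox-WT, 113, 169 and 161 for Hox-URE and 51.7, 66.8 and 64.7 for URE-AML. Hox-URE lay above both other lines, which overlapped with each other. *Mxd4* rose 2.22-fold from Hox-WT to Hox-URE (1.15 ± 0.24 SE, adjusted p = 0.00228 by edgeR) and was 2.42-fold lower in URE-AML than it was in Hox-URE (-1.27 ± 0.24 SE, adjusted p = 0.00105 by edgeR). Between URE-AML and Hox-WT it differed by -0.12 ± 0.24 (SE, adjusted p = 0.685 by edgeR).

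*Mxi1* (MXD2; ENSMUSG00000025025, chromosome 19, 53310518 to 53375810, plus strand) was lowest where *Mxd4* was highest. Its level was 48.8, 48.1 and 47.1 CPM for Hox-WT, 24.8, 35.4 and 33.2 for Hox-URE and 60.0, 61.8 and 58.9 for URE-AML. No libraries of different lines overlapped. *Mxi1* fell 1.54-fold in Hox-URE versus Hox-WT (-0.63 ± 0.13 SE, adjusted p = 0.00201 by edgeR), a call that ended without Hox-URE library 1 (-0.49). It was 1.94-fold higher in URE-AML than it was in Hox-URE (0.95 ± 0.13 SE, adjusted p = 0.00011 by edgeR). Its difference from Hox-WT in URE-AML, 0.33 ± 0.12 (SE, adjusted p = 0.0448 by edgeR), was under 1.5-fold.

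*Mxd1* and *Mxd3* had low counts, 65 to 198 and 102 to 198 per library. *Mxd1* (ENSMUSG00000001156, chromosome 6, 86647042 to 86669161, minus strand) stood at 2.44, 2.54 and 4.08 CPM for Hox-WT, 2.37, 3.11 and 5.31 for Hox-URE and 5.98, 5.76 and 8.50 for URE-AML. The Hox lines overlapped and URE-AML lay above both. *Mxd1* rose 2.23-fold in URE-AML versus Hox-WT (1.16 ± 0.33 SE, adjusted p = 0.0129 by edgeR) and 1.89-fold versus Hox-URE (0.92 ± 0.33 SE, adjusted p = 0.037 by edgeR). The first call was lost without Hox-WT library 2 (1.04, adjusted p = 0.0504 by edgeR) or URE-AML library 3 (0.96, adjusted p = 0.0538 by edgeR). The second was lost without Hox-URE library 1 (0.68), Hox-URE library 2 (0.82), URE-AML library 1 (1.00) or URE-AML library 3 (0.72), with edgeR adjusted p of 0.0521 to 0.131.

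*Mxd3* (ENSMUSG00000021485, chromosome 13, 55325168 to 55329823, minus strand), the family member linked to dividing cells, stood at 4.35, 3.64 and 3.94 CPM for Hox-WT, 3.90, 5.14 and 5.57 for Hox-URE and 5.57, 6.71 and 8.50 for URE-AML. The lowest URE-AML library and the highest Hox-URE library were nearly equal. URE-AML lay above Hox-WT, with a 1.74-fold rise (0.80 ± 0.22 SE, adjusted p = 0.00961 by edgeR). Against Hox-URE the log2 fold change was 0.51 ± 0.22 (SE, adjusted p = 0.0666 by edgeR), which became a call without URE-AML library 1 (0.65). Exons of *Mxd3* share 105 bases with the abundant *Prelid1* on the other strand, with the same limit as for *Mlx*. *Mnt*, a further MAX-dependent repressor outside the 10 members, stood at 61.4 ± 9.74, 57.6 ± 2.72 and 36.8 ± 4.08 CPM (SD, n = 3) in the 3 lines (Hox-WT, Hox-URE, URE-AML). It fell in URE-AML versus Hox-WT (-0.74 ± 0.13 SE, adjusted p = 0.000673 by edgeR) and versus Hox-URE (-0.65 ± 0.13 SE, adjusted p = 0.00161 by edgeR).

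*Mga* (ENSMUSG00000033943, chromosome 2, 119897228 to 119969581, plus strand), the largest member, was not called in any comparison. It stood at 76.3, 59.1 and 59.4 CPM for Hox-WT, 75.5, 53.5 and 54.1 for Hox-URE and 44.7, 50.4 and 44.9 for URE-AML. URE-AML lay below both Hox lines. The log2 fold change versus Hox-WT was -0.48 ± 0.15 (SE, adjusted p = 0.0228 by edgeR), under 1.5-fold, and that versus Hox-URE was -0.39 ± 0.15 (SE, adjusted p = 0.0539 by edgeR). Of 9 other subunits of the Polycomb complex with MGA (PRC1.6), 2 rose and 0 fell in Hox-URE versus Hox-WT, and 1 rose and 2 fell in URE-AML versus Hox-WT. The 2 that rose and the 2 that fell were each 22.2% of the list, beside 21.3% of all genes higher in the first comparison and 20.2% lower in the second. In URE-AML versus Hox-URE, 0 rose and 3 fell, 33.3% of the list beside 22.4% of all genes lower, and these were *Pcgf6*, *Rnf2* and *Yaf2*. *Yaf2*, for a subunit that binds RING1 proteins, rose in Hox-URE versus Hox-WT, from 53.5 ± 4.29 to 93.8 ± 16.7 CPM, and stood at 50.6 ± 3.04 in URE-AML (SD, n = 3). *E2f6*, a DNA-binding repressor of this complex, rose in both lines relative to Hox-WT, from 17.4 ± 2.13 CPM to 44.7 ± 2.58 and 49.2 ± 1.93 (SD, n = 3). *Pcgf6*, the subunit that defines the complex, had 28.0 ± 2.46, 21.2 ± 4.64 and 9.09 ± 0.723 CPM (SD, n = 3) in the 3 lines (Hox-WT, Hox-URE, URE-AML) and was called lower in URE-AML than it was in either Hox line. The ubiquitin ligase *Rnf2* was also lower in URE-AML than it was in either.

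Over the whole network, the share of members called was near that of all genes, so the counts do not set the network apart. In Hox-URE versus Hox-WT, 2 of the 9 tested members were higher and 2 lower, where 21.3% of the tested genes were called higher, 15.9% lower and 37.2% in all. In URE-AML versus Hox-WT, 3 were higher and 2 lower, where 23.0% of genes were higher, 20.2% lower and 43.2% in all. In URE-AML versus Hox-URE, 3 were higher and 2 lower, beside 20.3%, 22.4% and 42.7% of genes. The libraries of the lines did not overlap for 5, 8 and 7 of the 9 members in these comparisons, beside 60.3%, 67.6% and 62.8% of genes. The median log2 fold change of the members was 0.24, -0.12 and 0.27, and that of all tested genes was 0.00 in each. The 3 comparisons share libraries, so they are not independent of each other.

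**Figure D2:**
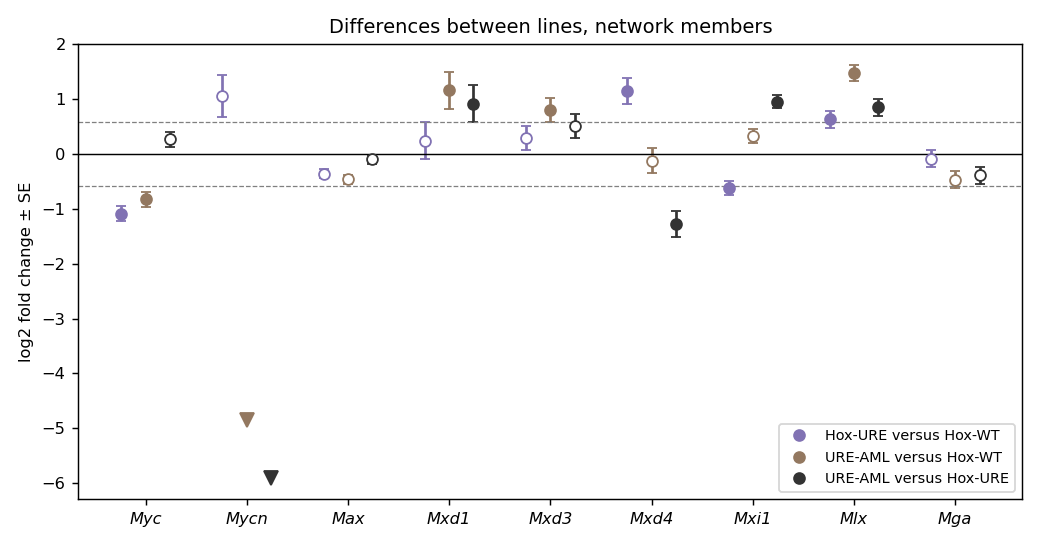
Log2 fold change (vertical axis) of 9 network members in the 3 comparisons, with SE from edgeR as whiskers; filled points were called and open points were not, and dashed lines mark a fold change of 1.5. Triangles give *Mycn* in URE-AML at its bound, at least 28.8-fold and 60.1-fold lower, so its true position is at or under the triangle; *Myc* is lower in both lines versus Hox-WT and *Mlx* is higher in all 3 comparisons.

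Compared per kilobase of exon, *Myc* was the most abundant member in every line, at 101 ± 5.97 CPM per kb for Hox-WT, 47.2 ± 3.38 for Hox-URE and 56.8 ± 11.7 for URE-AML (SD, n = 3). In Hox-WT the order below it was *Max* (32.2 CPM per kb), *Mlx* (16.8), *Mxd4* (7.83), *Mxi1* (7.03), *Mga* (4.23), *Mxd3* (1.68), *Mycn* (1.25) and *Mxd1* (0.427). Of these neighbours, *Mxd4* with *Mxi1* and *Mxd3* with *Mycn* overlapped between libraries. In Hox-URE *Mlx* (26.0 CPM per kb) and *Max* (25.0) overlapped, followed by *Mxd4* (17.4). *Mxi1* (4.56) overlapped with *Mga* (3.98) and *Mycn* (2.60) with *Mxd3* (2.05), and *Mxd1* (0.509) came last of those detected. In URE-AML *Mlx* (46.7 CPM per kb) was above *Max* (23.4) in every library, and was followed below *Max* by *Mxi1* (8.83), *Mxd4* (7.20), *Mga* (3.04), *Mxd3* (2.92) and *Mxd1* (0.954), with overlap only of *Mga* and *Mxd3*. The lowest *Myc* library there (48.3) barely exceeded the highest of *Mlx* (47.4). With the length of the longest transcript in place of all exons, *Max* ranked 2, *Mxd4* 3 and *Mlx* 4 in Hox-URE. In URE-AML, *Mxd4* (13.2 CPM per kb) then came before *Mxi1* (12), and *Mxd3* (3.98) before *Mga* (3.35). These orders thus depended on the length used.

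The summed level of the MYC genes relative to that of the 4 MXD genes was highest in Hox-WT. Per library this ratio of CPM per kb was 7.08, 5.75 and 5.42 for Hox-WT, 2.74, 1.69 and 1.88 for Hox-URE and 3.88, 2.53 and 2.29 for URE-AML. Hox-WT lay above both other lines, which overlapped. With the longest transcript it was 3.96 to 5.39, 1.16 to 1.88 and 1.73 to 2.96. *Mxd4* made up 70.4% to 71.9% of the MXD sum in Hox-URE, 35.1% to 52.4% in Hox-WT and 33.7% to 38.3% in URE-AML. The level of *Mlx* relative to *Max* was 0.504 to 0.555 for Hox-WT, 0.877 to 1.26 for Hox-URE and 1.91 to 2.14 for URE-AML. With the longest transcript it was 0.277 to 0.305, 0.481 to 0.690 and 1.05 to 1.18, so the order of the lines stayed but the size of the ratio depended on the length used. RNA levels do not give the amounts of protein or dimers.

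**Figure D3:**
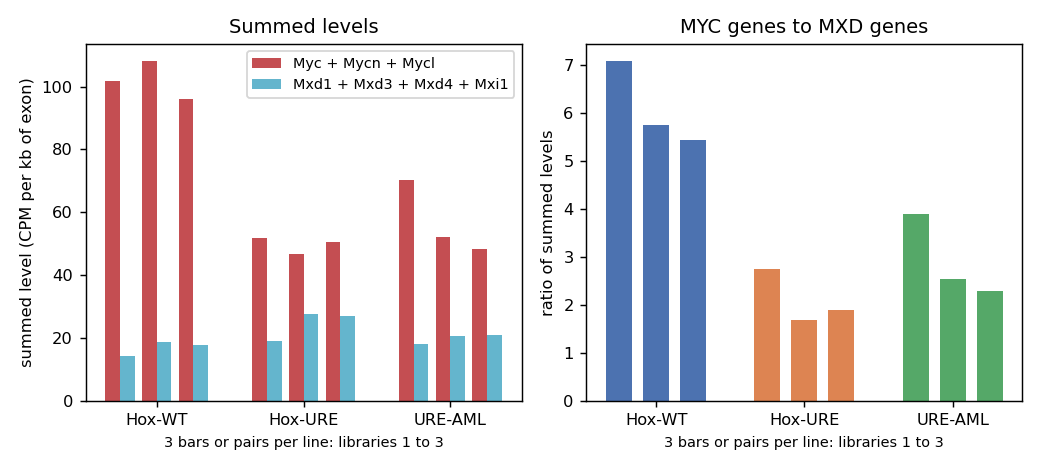
Left, summed level of *Myc*, *Mycn* and *Mycl* and of *Mxd1*, *Mxd3*, *Mxd4* and *Mxi1* in CPM per kb of exon (vertical axis from 0), 1 pair of bars per library in the order 1 to 3. Right, ratio of the sums per library, which is 5.42 to 7.08 for Hox-WT, 1.69 to 2.74 for Hox-URE and 2.29 to 3.88 for URE-AML.

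The position of *Myc* was examined because chromosome 15 stood apart from the others in Hox-URE. The median log2 fold change of the other 510 tested genes of chromosome 15 was 0.34 in Hox-URE versus Hox-WT, the highest of 20 chromosomes, and -0.39 in URE-AML versus Hox-URE, the lowest. In URE-AML versus Hox-WT it was 0.00. *Myc* lay below its chromosome's median by 1.43 on the log2 scale in Hox-URE and by 0.82 in URE-AML, both versus Hox-WT. Relative to that median, *Myc* was 0.66 higher in URE-AML than it was in Hox-URE. The number of chromosome copies was not measured in these data. For the other members, the median of the chromosome was within 0.1 of 0, except for *Mxd4* on chromosome 5 in URE-AML (0.18 versus Hox-WT and 0.23 versus Hox-URE). Of 7 genes listed as near *Myc*, 3 rose (1 to 3 over the settings) and 2 fell in Hox-URE versus Hox-WT, where 37.2% of all genes were called. *Trib1*, a pseudokinase gene of myeloid leukemia, rose from 17.2 ± 2.49 to 71.9 ± 5.12 CPM in Hox-URE and 62.6 ± 10.1 in URE-AML, while *Fam84b* fell from 59.1 ± 4.27 to 2.63 ± 0.456 and 1.10 ± 0.264 CPM (SD, n = 3). Both were thus called the same way in URE-AML, where the chromosome's median was 0.00. *Fam49b* and *Asap1* rose in Hox-URE versus Hox-WT, and *Sqle*, for a cholesterol synthesis enzyme, rose in URE-AML. *Pvt1*, the long noncoding RNA that follows *Myc*, had 3.33 ± 0.282 CPM for Hox-WT, 1.78 ± 0.363 for Hox-URE and 2.91 ± 0.672 for URE-AML (SD, n = 3). It was lower in Hox-URE than it was in Hox-WT (-0.91 ± 0.26 SE, adjusted p = 0.0145 by edgeR) and higher in URE-AML than it was in Hox-URE (0.72 ± 0.26 SE, adjusted p = 0.0392 by edgeR).

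**Figure D4:**
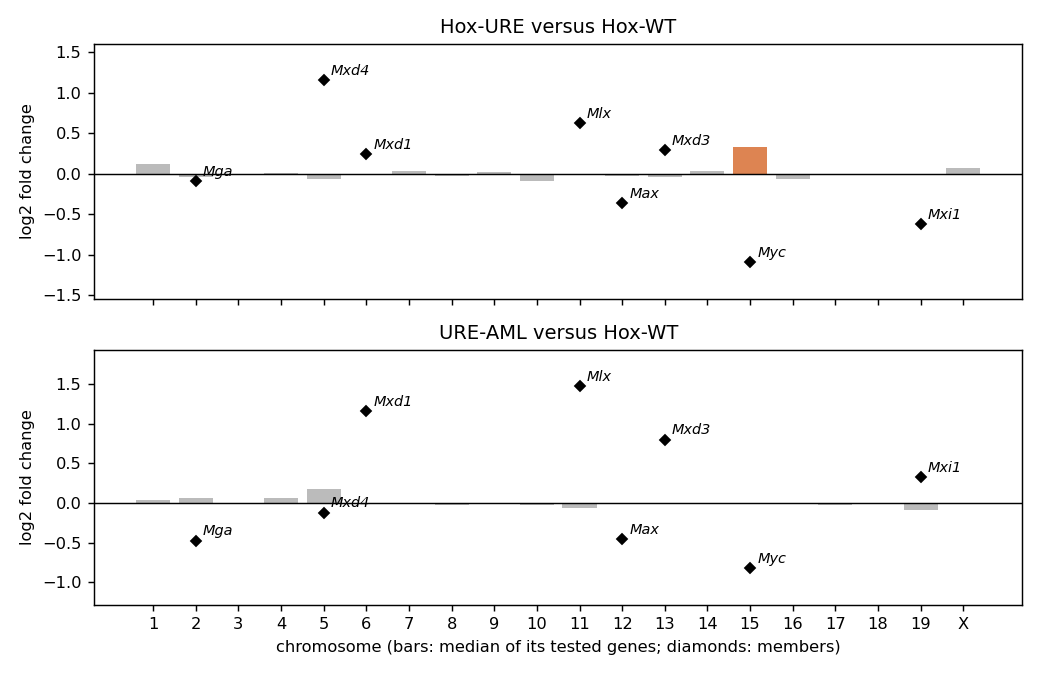
Median log2 fold change of the tested genes of each chromosome (bars, chromosome 15 in orange) and log2 fold change of 8 network members at their chromosomes (diamonds), in Hox-URE and in URE-AML versus Hox-WT. In the upper panel chromosome 15 has the highest median (0.33 with *Myc* among its genes) while *Myc*, on it, is at -1.09; in the lower panel its median is 0.00 and *Myc* is at -0.83. *Mycn*, at 0 in URE-AML, is not drawn.

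Genes that carry out the action of the network were described by lists. Of 18 coactivators and turnover factors of MYC, 1 rose and 9 fell in Hox-URE versus Hox-WT, with a median log2 fold change of -0.59, where 21.3% of all genes were higher and 15.9% lower. The number that fell was 4 to 10 over the alternative settings. *Skp2*, the ubiquitin ligase subunit that drives cell cycle entry, fell from 50.0 ± 2.53 to 19.5 ± 2.66 CPM and was at 41.7 ± 3.02 in URE-AML (SD, n = 3). *Aurka*, for a mitotic kinase that stabilises MYC proteins, was lower in Hox-URE (-0.73 ± 0.08 SE, adjusted p = 3.89e-05 by edgeR) than it was in Hox-WT. *Ruvbl2*, an ATPase of chromatin complexes that MYC recruits, fell from 336 ± 30.3 to 155 ± 28.3 CPM (SD, n = 3). *Bin1*, which encodes a protein that restrains MYC, rose from 32.1 ± 4.10 to 72.4 ± 18.1 CPM and stood at 22.9 ± 6.37 in URE-AML (SD, n = 3). *Fbxw7*, the ligase subunit that marks MYC for degradation, was lower in both Hox-URE (-0.92 ± 0.18 SE, adjusted p = 0.00191 by edgeR) and URE-AML (-0.88 ± 0.18 SE, adjusted p = 0.00205 by edgeR) than in Hox-WT. In URE-AML, 0 rose and 3 fell versus Hox-WT (1 to 9 fell over the settings), where 20.2% of all genes were lower, and 5 rose and 1 fell versus Hox-URE, where 20.3% were higher. The 3 that fell versus Hox-WT were *Fbxw7*, *Ruvbl1*, for the partner of RUVBL2, and *Actl6a*, for a chromatin complex subunit, and those higher than in Hox-URE included *Aurka*, *Skp2* and *Wdr5*, for a histone methylation cofactor. Of the 16 SIN3-HDAC genes, 0 rose and 3 fell, 1 rose and 1 fell, and 0 rose and 1 fell in the same order of comparisons. The 3 that fell in Hox-URE (1 to 6 over the settings) were 18.8% of the list, near the 15.9% of all genes. These were *Hdac2*, *Sap30* and *Arid4b*. In URE-AML versus Hox-WT *Arid4a* rose and *Arid4b* fell, and *Sin3b* was lower in URE-AML than it was in Hox-URE. *Hdac2*, a histone deacetylase, fell in Hox-URE versus Hox-WT from 174 ± 9.78 to 88.7 ± 13.8 CPM (SD, n = 3), while the scaffold *Sin3a* was not called in any comparison, at means of 67.2 to 77.9 CPM.

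Of the 48 genes listed as activated by MYC, most had lower levels in both lines in which *Myc* was lower, in comparisons that share the Hox-WT libraries. In Hox-URE versus Hox-WT, 0 were called higher and 20 lower, which is 41.7% of the list beside 15.9% of all genes, and 46 had a negative log2 fold change. In URE-AML versus Hox-WT, 1 was higher and 17 lower, 35.4% beside 20.2%, and 40 were negative. The median log2 fold change was -0.51 in both, beside 0.00 for all genes. In URE-AML versus Hox-URE, 6 were higher and 2 lower, which is 12.5% and 4.17% of the list beside 20.3% and 22.4% of all genes, with a median of 0.04. These counts depend on the fold threshold. With no threshold 33 and 32 were lower versus Hox-WT, beside 25.2% and 27.8% of all genes. When tested against a fold change of 1.5, 5 and 5 were lower, which is 10.4% of the list in each, beside 10.2% and 15% of all genes. In that test the list thus had no larger share of lower genes than all genes in URE-AML and nearly the same share in Hox-URE. Without URE-AML library 2, 11 were lower in URE-AML versus Hox-WT, which is 22.9% of the list and near the 19.2% of all genes in that fit.

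Ribosome and cell cycle genes were among those that fell. *Npm1*, a nucleolar protein gene, had 2283 ± 204 CPM for Hox-WT, 1059 ± 61.4 for Hox-URE and 1080 ± 131 for URE-AML (SD, n = 3). *Cdk4*, a G1 kinase gene, had 639 ± 21.8, 394 ± 5.38 and 342 ± 29.3 CPM (SD, n = 3). Both were called lower in Hox-URE and URE-AML than in Hox-WT. *Odc1*, which starts polyamine synthesis, fell in Hox-URE (-0.99 ± 0.27 SE, adjusted p = 0.00997 by edgeR), and in URE-AML its log2 fold change was -0.58 ± 0.26 (SE, adjusted p = 0.0867 by edgeR). *Ncl*, for nucleolin, fell in URE-AML (-0.65 ± 0.15 SE, adjusted p = 0.00405 by edgeR), and in Hox-URE it differed by -0.56 ± 0.15 (SE, adjusted p = 0.0109 by edgeR), under 1.5-fold. *Ccnd2*, for cyclin D2, fell in Hox-URE from 246 ± 16.1 to 75.3 ± 22.7 CPM and stood at 260 ± 28.2 CPM in URE-AML (SD, n = 3). The transferrin receptor gene *Tfrc* was the 1 gene of the list that was called higher in URE-AML than it was in Hox-WT (0.66 ± 0.12 SE, adjusted p = 0.0011 by edgeR). The mitochondrial chaperonin gene *Hspe1* fell in URE-AML versus Hox-WT (-1.49 ± 0.16 SE, adjusted p = 2.08e-05 by edgeR). It and *Shmt2*, of mitochondrial folate metabolism, were the 2 genes lower in URE-AML than in Hox-URE, and *Cdc25a*, a cell cycle phosphatase gene, was among the 6 that were higher.

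**Figure D5:**
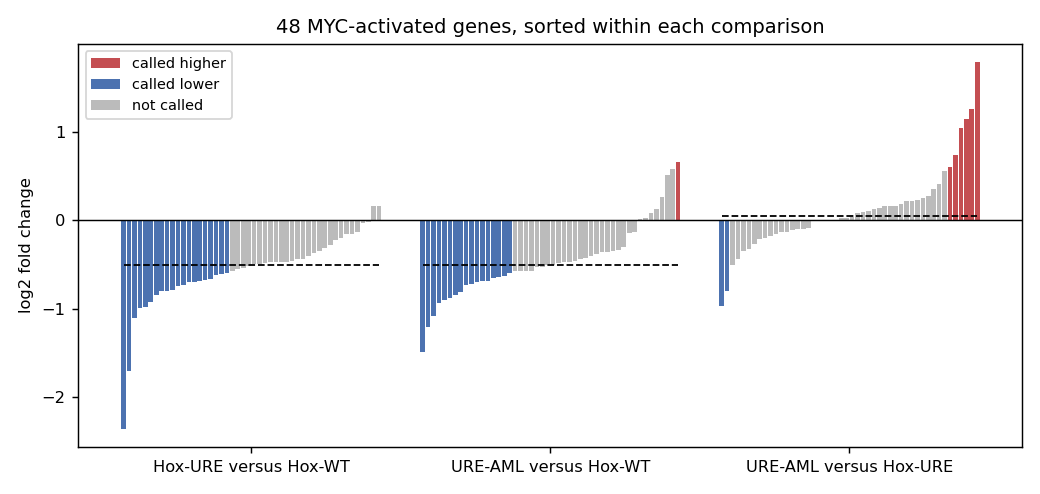
Log2 fold change (vertical axis) of 48 genes listed as activated by MYC, 1 bar per gene, sorted within each of the 3 comparisons; red bars were called higher, blue bars lower and grey bars not called, and dashed lines mark the medians. The medians are -0.51, -0.51 and 0.04, with 20, 17 and 2 genes called lower.

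Of 7 genes listed as repressed by MYC, 3 rose and 0 fell in Hox-URE versus Hox-WT, and 4 rose and 1 fell in URE-AML versus Hox-WT, where 21.3% and 23.0% of all genes were higher. In URE-AML versus Hox-URE, 2 rose and 3 fell, where 20.3% of all genes were higher and 22.4% lower. The cell cycle inhibitor *Cdkn2b* had 0.216 ± 0.0426 CPM for Hox-WT, 9.33 ± 1.97 for Hox-URE and 0.173 ± 0.148 for URE-AML (SD, n = 3), and was called in both comparisons with Hox-URE. *Gadd45a*, a growth arrest gene, was also highest in Hox-URE, at 47.5 ± 7.59 CPM beside 6.13 ± 0.773 and 4.38 ± 0.159 (SD, n = 3). *Cdkn1a*, for the inhibitor p21, rose in URE-AML (0.83 ± 0.13 SE, adjusted p = 0.000377 by edgeR), as did *Cdkn1b*, for p27 (0.74 ± 0.20 SE, adjusted p = 0.00946 by edgeR). The gene that fell in URE-AML versus Hox-WT was *Ndrg1* (-1.04 ± 0.27 SE, adjusted p = 0.0075 by edgeR), which was also lower than it was in Hox-URE (-0.77 ± 0.27 SE, adjusted p = 0.0309 by edgeR). *Ndrg2* rose in URE-AML, at 0.609 ± 0.298 CPM, at least 5.42-fold above Hox-WT, where it had 0 counts. Only its URE-AML counts let it pass the filter on low counts, so the filter favoured its calls as higher. *Thbs1*, for the matrix protein thrombospondin 1, had 283, 71.3 and 43.9 CPM in Hox-URE libraries 1 to 3, beside 5.05 to 12.1 in Hox-WT and 1019 to 1316 in URE-AML. Of the glucose-responsive targets of MLX dimers, *Arrdc4* rose in Hox-URE (2.65 ± 0.29 SE, adjusted p = 3.65e-05 by edgeR) and in URE-AML (1.36 ± 0.28 SE, adjusted p = 0.00209 by edgeR) versus Hox-WT. It was lower in URE-AML than it was in Hox-URE (-1.29 ± 0.27 SE, adjusted p = 0.00213 by edgeR), while *Mlx* was called higher in all 3 comparisons. *Txnip* rose in Hox-URE (0.99 ± 0.23 SE, adjusted p = 0.00525 by edgeR), and in URE-AML its log2 fold change was 0.40 ± 0.23 (SE, adjusted p = 0.175 by edgeR) versus Hox-WT and -0.59 ± 0.23 (SE, adjusted p = 0.0507 by edgeR) versus Hox-URE. The MLX partner *Mlxip* had 62.3 ± 2.56, 51.5 ± 3.25 and 61.7 ± 6.03 CPM (SD, n = 3) in the 3 lines (Hox-WT, Hox-URE, URE-AML) and was not called. *Mlxipl* was too low to be tested.

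Markers of other cell types also differed between the lines. Summed over 12 neutrophil granule genes, the level was 5627 to 9057 CPM for Hox-WT, 2801 to 4120 for Hox-URE and 11670 to 26267 for URE-AML. Most of the Hox-URE sum was *Ctsg*, at 2483, 3633 and 3860 CPM in libraries 1 to 3, beside 1599 to 2293 in Hox-WT. *Ltf* and *S100a9* had 0 counts in Hox-URE. Of these 12 genes, 1 rose and 9 fell in Hox-URE versus Hox-WT, beside 21.3% of all genes higher and 15.9% lower, and 10 rose and 1 fell in URE-AML versus Hox-WT, beside 23.0% and 20.2%. Over the settings, 3 to 9 fell in the first comparison and 5 to 10 rose in the second. The antimicrobial genes *S100a8*, *Lcn2* and *Camp* rose in URE-AML, and *Lcn2* was the 1 that rose in Hox-URE, where *S100a8* and the protease gene *Prtn3* fell. Their sum was thus highest where *Mxd1*, *Mxd3*, *Mxi1* and *Mlx* were highest. The gene that fell in URE-AML was *Mpo*, for myeloperoxidase, at 5042 ± 1516 CPM for Hox-WT, 5.04 ± 4.45 for Hox-URE and 192 ± 19.0 for URE-AML (SD, n = 3), while *Elane*, for neutrophil elastase, had 181 ± 62.4, 9.29 ± 1.29 and 7311 ± 3116 CPM (SD, n = 3). Summed over 6 mast cell and basophil genes, the level was 483 to 838 CPM for Hox-WT, 1613 to 5892 for Hox-URE and 31.3 to 62.3 for URE-AML. *Cpa3* alone gave 768, 2789 and 4437 CPM in Hox-URE libraries 1 to 3. *Mxd4* was also highest in Hox-URE, but it overlapped between Hox-WT and URE-AML, whose sums did not overlap. *Tpsb2* was at 0 in Hox-WT. Of the 5 tested, 4 rose and 0 fell in Hox-URE versus Hox-WT, and 1 rose and 3 fell in URE-AML versus Hox-WT. Of 6 monocyte genes, 1 rose and 5 fell (1 to 5 over the settings) in Hox-URE versus Hox-WT, and 1 rose and 3 fell (0 to 4) in URE-AML versus Hox-WT, with the same shares of all genes. The 6 summed to 347 to 378, 846 to 945 and 122 to 331 CPM, but the Hox-URE sum was nearly all *Ccr2*, a chemokine receptor gene, at 12.7 ± 1.92 CPM for Hox-WT, 885 ± 49.8 for Hox-URE and 14.3 ± 3.64 for URE-AML (SD, n = 3). *Adgre1*, which encodes the macrophage marker F4/80, fell in Hox-URE versus Hox-WT, from a mean of 274 CPM to 1.43 ± 1.22 (SD, n = 3). *Csf1r* was at 0 in Hox-URE and *Ly86* at 0 in URE-AML. Erythroid genes summed to at most 14.8 CPM in any library. Lymphoid genes summed to 36.4 to 47.1 CPM for Hox-WT, 34.5 to 41.2 for Hox-URE and 0.129 to 0.238 for URE-AML. In the Hox lines nearly all of it was *Ebf1*, a B cell transcription factor gene, whose level in URE-AML lay at least 298-fold below Hox-WT and at least 255-fold below Hox-URE. *Cd3e* was at 0 in every line. Of 10 proliferation markers, 1 rose and 1 fell in Hox-URE versus Hox-WT and 3 rose and 2 fell in URE-AML versus Hox-WT, where 23.0% of all genes were higher and 20.2% lower, with sums of 2325 to 2500, 2154 to 2437 and 2489 to 2742 CPM. In Hox-URE the mitotic genes were *Ccnb1*, which rose, and *Bub1*, which fell. *Mki67* was at 274 ± 43.6, 282 ± 94.0 and 510 ± 80.9 CPM (SD, n = 3), and rose with *Top2a* and *Birc5* in URE-AML. The replication genes *Pcna* (-0.76 ± 0.08 SE, adjusted p = 3.25e-05 by edgeR) and *Mcm2* (-0.71 ± 0.08 SE, adjusted p = 3.42e-05 by edgeR) fell there versus Hox-WT. The part of these cell type differences in the members' levels was not tested.

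The genes whose level was most like that of each member were found by Pearson's r of log2 CPM over the 9 libraries. The libraries form 3 lines, so r mainly describes the line means. For *Myc* these were *Ccl2* (r = 0.984), *Gm47815* (0.982) and *Zfp503* (0.980). *Ccl2* and *Gm47815* were barely detected, with means of 0.676 and 1.80 CPM for Hox-WT, 0 for Hox-URE and 0.0538 and 0.0975 for URE-AML. *Zfp503*, a zinc finger gene, had means of 21.5, 4.36 and 6.28 CPM in the 3 lines (Hox-WT, Hox-URE, URE-AML). For *Mycn* they were *Cdkn2a* (0.998), which encodes p16 and p19ARF, *Etnk1* (0.998) and *Mvb12a* (0.997). *Cdkn2a* had means of 10.8, 18.0 and 0.539 CPM. For *Max* they were the nuclear pore gene *Nup85* (0.994), *Mrpl43* (0.988) and *Bambi* (0.986). Those of *Mlx* were the triglyceride synthesis gene *Dgat1* (0.992), *Thbs1* (0.992) and the hypoxia factor gene *Hif1a* (0.991). *Hif1a* had means of 116, 257 and 500.3 CPM for the lines in that order. For *Mxd4* they were the mitophagy kinase gene *Pink1* (0.988), *Isg20* (0.986) and *Rb1cc1* (0.985), and for *Mxi1* *Arhgef10l* (0.992), *Rabl6* (0.986) and *Zc4h2* (0.986). *Mxd1* had *Ttk* (0.973), *Nthl1* (0.963) and *Gm8520* (0.955), the last barely detected at means of 0.178 to 0.549 CPM. *Mxd3* had *Sirt6* (0.968), *Tle6* (0.957) and *Slc25a42* (0.955), and *Mga* had *Btaf1* (0.982), *Rtca* (0.973) and *Nif3l1* (0.965).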

How the data were processed

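Stranded poly-A libraries were made from 3 mouse cell lines, 3 per line. Per the methods of the authors, salmon assigned reads to transcripts (GRCm38) and tximport summed them per gene. The deposited estimated counts are whole numbers without scaling for depth. The transcriptome release, any length scaling and the use of strand were not given in the sources used here. Total counts per library were 20331064 to 28588718.

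Genes were filtered with filterByExpr (minimum count 10) and scaled by TMM, and all 9 libraries entered 1 quasi-likelihood fit whose only factor was line (edgeR 4.0.16 in R 4.3.3). Two-sided tests of the 3 pairs of lines were adjusted by Benjamini-Hochberg over 13082 genes. Calls need a fold change over 1.5 besides an adjusted p under 0.05. Bounds against lines at 0 use a floor of 3 counts per library. Coordinates and exon lengths came from GENCODE M21, where 54094 of 54347 identifiers were found, and promoters from RefSeq.

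The members and gene lists were chosen with earlier results of these data known, from textbook knowledge of the network. The rule named all members, up to 3 called genes per direction, list and comparison with the smallest p, fixed key genes, and the 3 genes most like each member. *Sin3a*, *Bmyc*, genes overlapping members and markers of other cell types are named outside it, the latter for carrying a sum or being at or near 0. The code was tested on simulated data. Alternatives were other scalings, filters, thresholds, DESeq2 1.42.0, fits to 6 libraries, a block on the replicate number, the longest transcript, and leaving out each library.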

Additional observations from a re-analysis of the deposited data

How the results depend on the processing

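The members called higher in Hox-URE versus Hox-WT numbered 2, 1 with scaling by library size only or when tested against a fold change of 1.5, and 3 with no filter, with only the 6 libraries compared, with the replicate block or with DESeq2, each of which adds *Mycn*. Those called lower there numbered 2, 1 in the test against 1.5, and 3 with no fold threshold, which adds *Max*. In URE-AML versus Hox-WT, the 3 called higher became 1 in the test against 1.5 and 4 with no fold threshold, which adds *Mxi1* (edgeR adjusted p = 0.0448), and the 2 called lower became 1 with at least 10 counts required in every library, which removes *Mycn*, and 4 with no fold threshold, which adds *Max* and *Mga*. In URE-AML versus Hox-URE, the 3 called higher became 2 in the test against 1.5 and 4 with library size only, which adds *Mxd3*, and the 2 called lower became 1 with at least 10 counts in every library. Leaving out each library in turn gave 1 to 2 higher and 1 to 2 lower in Hox-URE versus Hox-WT, and 2 to 3 higher and 2 lower in both comparisons of URE-AML.

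The sign turned for 4 values, none of them called. *Mxd1* in Hox-URE versus Hox-WT was -0.15 to 0.51 over the left-out libraries (negative without Hox-URE library 3), *Mga* there was -0.28 to 0.040 (positive without Hox-WT library 1), *Mxd4* in URE-AML versus Hox-WT was -0.36 to 0.078 (positive without Hox-WT library 2), and *Max* in URE-AML versus Hox-URE was 0.016 with library size only, where the median of all genes shifted by 0.11. Of all other values of single members under alternatives, 480 kept direction and side of the threshold, 15 lost a call and 11 gained one. The cause was not tested. *Mycn* in Hox-URE versus Hox-WT was called with DESeq2 (1.06, adjusted p = 0.0252), with no filter, and with only 6 libraries, with an adjusted p of 0.00586 to 0.197 over its 18 alternatives. With the replicate number as a block it was also called (1.01, edgeR adjusted p = 0.00947), and the block changed no other member's call. Same-numbered libraries of different lines deviated together only weakly (r of 0.01 to 0.271), and 6 of 6, 5 of 6 and 6 of 6 libraries correlated best with their own number, a hint from the data and not from the design. Levels per kb moved by more than their SD for 19 of 30 with the longest transcript and for 3 of 30 with library size only. Counts of 65 to 198 limit *Mxd1*, and 3 libraries per line limit all tests.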

Other observations

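*Bmyc*, a mouse paralog of *Myc* outside the 10 members, was looked at after its values were seen. It had 0 counts in all 6 libraries of Hox-WT and Hox-URE and 31, 11 and 20 counts in URE-AML libraries 1 to 3, which is 1.25, 0.523 and 0.858 CPM. *Mycn* had 0 counts in the same 3 URE-AML libraries.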
